A study of Mus musculus with 9 samples.

Results

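The translation initiation factors measured here were 45 genes read in mouse ntESCs, embryonic stem cells obtained by nuclear transfer: pluripotent lines made from embryos whose nucleus came from a somatic cell. Members were all genes whose symbol in the array's annotation starts with Eif and a digit, without Eif2s3y and Eif4ebp1, and they are 45 of 18666 features tested (named genes and unnamed probes). The arrays fell into 3 genotypes of Terc, the gene of the telomerase RNA: Terc-/- with no intact copy, Terc+/- with 1 copy and Terc+/+ with both, with 3 arrays each. All 9 samples were C57BL/6 ntESCs, and all had been grown without serum, with LIF, on mitomycin-C treated embryonic fibroblasts that were removed before RNA extraction. The series' design text names the 3 samples of a genotype biological repeats, without saying whether these were separate lines or cultures, so p-values measure the spread between these samples, which may be partly technical. No probe was paired with Terc, so the genotypes rest on the labels.

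Initiation is the step of protein synthesis at which a ribosome finds the start codon of an mRNA. The eIF4 factors bind the cap and unwind the leader, eIF2 brings the initiator tRNA, eIF3, eIF1 and eIF1A hold the small subunit open while it scans, and eIF5 and eIF5B close the step by GTP hydrolysis and joining of the large subunit. Signals converge on this step in a pair of ways: the eIF2 kinases phosphorylate eIF2 and so block its recharging by eIF2B, and the eIF4E-binding proteins sequester the cap-binding factor until mTOR phosphorylates them. Values are the authors' normalized log2 probe values, on which a difference of 1 is a doubling, and each gene was read from its probe with the highest mean.

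For 4 members the promoter is shown: Eif3c, the member with the smallest p among those lower in Terc-/-, and Eif4a1, Eif4e and Eif4h of the cap-binding group, which hold the E-box CACGTG, the letters bound by Myc and related factors, printed in capitals; the Eif3c window holds none. Each line gives the 250 bases before a RefSeq start of mouse assembly GRCm38.p6, read 5′ to 3′ on the gene's strand.
Eif3c (chr7:126566367-126566616, minus strand): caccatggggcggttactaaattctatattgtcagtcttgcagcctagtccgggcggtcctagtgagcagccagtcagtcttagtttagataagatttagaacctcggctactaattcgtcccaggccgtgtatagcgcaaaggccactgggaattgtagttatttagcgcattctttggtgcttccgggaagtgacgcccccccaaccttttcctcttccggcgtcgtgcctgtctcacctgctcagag
Eif4a1 (chr11:69672424-69672673, minus strand): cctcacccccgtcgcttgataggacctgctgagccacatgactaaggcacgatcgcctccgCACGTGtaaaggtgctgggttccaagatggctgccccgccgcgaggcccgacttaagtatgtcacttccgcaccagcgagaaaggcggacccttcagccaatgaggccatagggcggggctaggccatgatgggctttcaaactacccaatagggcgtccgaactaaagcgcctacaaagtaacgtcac
Eif4e (chr3:138527018-138527267, plus strand, at the second of its 2 starts): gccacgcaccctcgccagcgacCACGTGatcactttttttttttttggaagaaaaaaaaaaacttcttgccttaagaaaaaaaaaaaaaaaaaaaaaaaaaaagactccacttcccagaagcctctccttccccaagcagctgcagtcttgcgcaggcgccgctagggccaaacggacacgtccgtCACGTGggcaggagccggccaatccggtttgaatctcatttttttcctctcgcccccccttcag
Eif4h (chr5:134639410-134639659, minus strand): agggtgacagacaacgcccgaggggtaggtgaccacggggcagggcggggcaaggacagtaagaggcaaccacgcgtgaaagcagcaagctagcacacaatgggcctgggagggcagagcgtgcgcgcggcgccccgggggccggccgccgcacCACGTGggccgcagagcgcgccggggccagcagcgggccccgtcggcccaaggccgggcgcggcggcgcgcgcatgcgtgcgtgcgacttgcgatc
The E-box reads the same on both strands, and no other motif was searched; a match describes the letters and is not evidence of binding. It lay 189 bases before the start in Eif4a1, 228 and 64 bases before it in Eif4e, and 96 bases before it in Eif4h. Of the 36 members with a window in the table, 8 held it (22.2%), namely Eif1b, Eif3f, Eif3k, Eif4a1, Eif4e, Eif4h, Eif5a and Eif5a2, against 8.36% of the 12992 genes of the array with a window and 6.86% of all 27025 genes of the table. These 8 members did not share a direction in the arrays. Eif4a1, Eif4e, Eif4h and, by only 0.03 and 0.04, Eif5a2 had higher means in both mutant genotypes than in Terc+/+. Eif3f, Eif3k and Eif1b had lower ones. Eif5a was lower in Terc-/- (-0.14) and higher in Terc+/- (0.05).

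None of the 45 members was called between any genotypes at a Benjamini-Hochberg adjusted p under 0.05 with limma. In Terc-/- against Terc+/+ 0 of 45 were called, against 0.0536% of all features. In Terc+/- against Terc+/+ and in Terc-/- against Terc+/- 0 of 45 were called, against 0% of all features in each. In the contrast of both mutant genotypes with Terc+/+ 0 of 45 were called, against 0.193% of all features. An unadjusted p under 0.05 was reached by 4 members (8.89%) in Terc-/- against Terc+/+, where 10.6% of all features reached it. The same count was 5 members (11.1%) in Terc+/- against Terc+/+, where the background was 8.59%, and 6 members (13.3%) for both mutants against Terc+/+, where it was 11.7%. It was 0 members in Terc-/- against Terc+/-, where it was 1.76%. These shares lie near the background.

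The members' medians lay close to 0. Over the members the median log2 fold change was -0.044 in Terc-/- against Terc+/+, where 17 members had a higher and 28 a lower mean, and the median of all features was 0.005. In Terc+/- against Terc+/+ the members' median was 0.039 (27 higher, 18 lower) and that of all features 0.004. In Terc-/- against Terc+/- it was -0.042 (16 higher, 29 lower), with -0.004 for all features. The 3 comparisons share arrays, so their values are not independent of each other. The array mean of the 45 members lay between 9.56 and 9.69 in Terc-/-, between 9.63 and 9.72 in Terc+/- and between 9.55 and 9.74 in Terc+/+, and the genotypes overlapped.

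**Figure D1:**
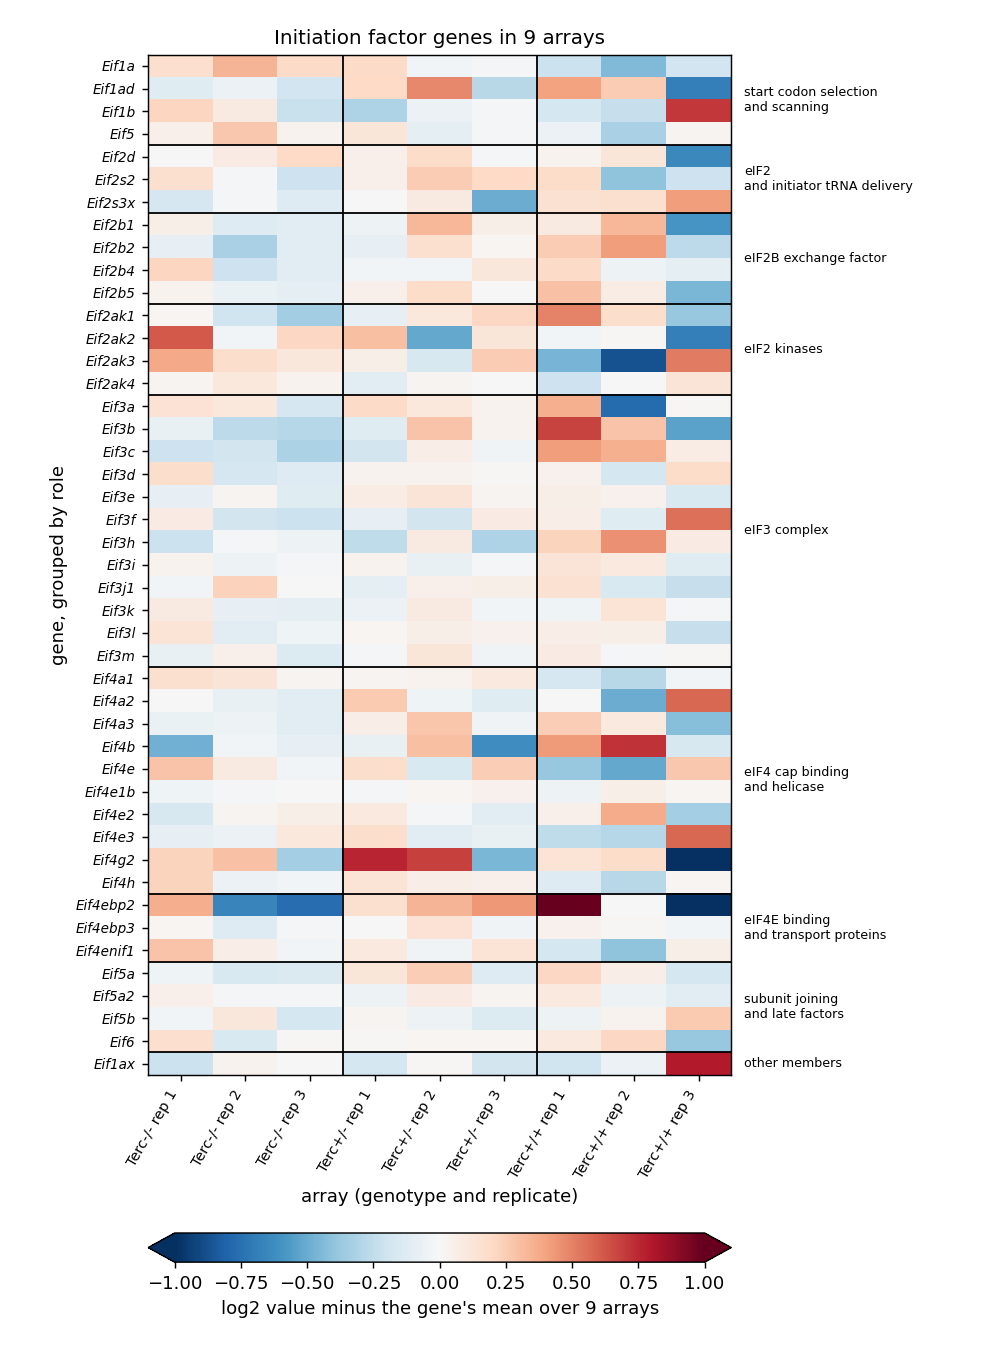
Each row is 1 of the 45 genes and each column 1 array, with Terc-/- at the left and Terc+/+ at the right; the colour is the log2 value minus the gene's mean over the 9 arrays, and colours end at 1 and -1. The strongest colours stand in Terc+/+ replicate 3, which was the lowest or highest array for 28 of the 45 genes.

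Correlations between arrays across probes ran from 0.95 to 0.995. Of the stem cell markers 14 were measured, with Pou5f1 between 11.13 and 12.70 and Dppa5a between 13.27 and 14.10 on every array. In Terc-/- against Terc+/+, 1 was called higher (Lin28a, 0.80, adjusted p = 0.0458 with limma) and 0 lower, against 0.0536% of all features. That call was lost without Terc+/+ replicate 1 or 2, without any 1 Terc-/- array and with the replicate block, where 0 features were called. At an unadjusted p under 0.05 there were 4 markers higher and 4 lower, against 10.6% of all features, with Klf4 lowest at -0.75. Whether these markers bear on the initiation factor values was not tested. Fibroblast feeder markers (29 measured of 32) varied most: their mean deviation ran from -0.21 to 1.15 in Terc-/-, from -0.87 to 0.79 in Terc+/- and from -1.18 to 0.95 in Terc+/+. With their score as a covariate, 0 members were called in any comparison, against 0.863% of all features in Terc-/- against Terc+/+, 1.34% in Terc+/- against Terc+/+, 0% in Terc-/- against Terc+/- and 2.96% with both mutants against Terc+/+. Mean levels of 7 trophoblast markers ran from 6.71 to 6.75 in Terc-/-, from 6.71 to 6.99 in Terc+/- and from 6.88 to 7.45 in Terc+/+, with Krt8 up to 9.44 while Hand1 stayed at or under 5.49 and Elf5 at or under 5.60; their part in the results was not tested. Mean levels of 7 endoderm markers lay between 6.29 and 6.71 over the arrays, with Dab2 up to 9.01 and Lama1 up to 8.73 and Foxa2 and Afp at or under 5.67. Those of 3 macrophage and blood markers lay between 6.00 and 6.53, with Lyz2 between 6.79 and 8.52 and Ptprc at or under 5.71, where the table's median was 5.94. In such bulk samples, fewer cells of a type and less RNA per cell cannot be told apart. Terc+/+ replicate 3 held the lowest or highest value of 28 of 45 members (62.2%), against 44.4% of all features.

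Among the factors of scanning and start codon choice, Eif1a had the smallest p of all members. Eif1a encodes eIF1A, which binds the small ribosomal subunit and keeps it open for scanning. Its log2 values were 11.25, 11.42 and 11.27 in Terc-/-, 11.27, 11.05 and 11.07 in Terc+/-, and 10.87, 10.64 and 10.89 in Terc+/+. All 6 mutant arrays lay above all 3 Terc+/+ arrays, and Terc-/- overlapped with Terc+/-. The difference was 0.51 in Terc-/- against Terc+/+ (1.43-fold, 95% interval 0.29 to 0.74, adjusted p = 0.123 with limma) and 0.33 in Terc+/- against Terc+/+ (interval 0.10 to 0.56, adjusted p = 0.367). For both mutants against Terc+/+ it was 0.42 (SE 0.09, adjusted p = 0.0921), so it did not pass over all features. It ranged from 0.34 to 0.47 when any 1 array was left out and was 0.42 with the feeder score as a covariate. A separate gene of the same factor, the X-linked Eif1ax, averaged 5.96 ± 0.13 on the Terc-/- arrays and 5.90 ± 0.11 on the Terc+/- arrays, against 6.20 ± 0.54 on the Terc+/+ arrays (SD, n = 3), where a single array, Terc+/+ replicate 3 at 6.81, stood above the other 8. Apart from that array, the Eif1ax values lay near the table's median, so its differences say little about the transcript. Whether probes of such closely related genes also bind each other's transcript was not tested.

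Eif5 encodes the GTPase-activating protein of eIF2. Its brightest probe gave 11.92, 12.14 and 11.91 in Terc-/-, 11.99, 11.78 and 11.85 in Terc+/-, and 11.81, 11.55 and 11.90 in Terc+/+. Terc-/- lay just above Terc+/+ on all 3 arrays, by 0.24 in mean (interval -0.02 to 0.50), but the further probes of Eif5 gave -0.23 and -0.14 for the same difference. Eif1b, a close relative of eIF1, averaged 10.58 ± 0.23 on the Terc-/- arrays and 10.43 ± 0.16 on the Terc+/- arrays, against 10.65 ± 0.52 on the Terc+/+ arrays (SD, n = 3). Eif1ad, a gene named for its likeness to eIF1A, ranged 2.23-fold over the arrays without a difference beyond the spread (-0.12, SE 0.29, in Terc-/- against Terc+/+).

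**Figure D2:**
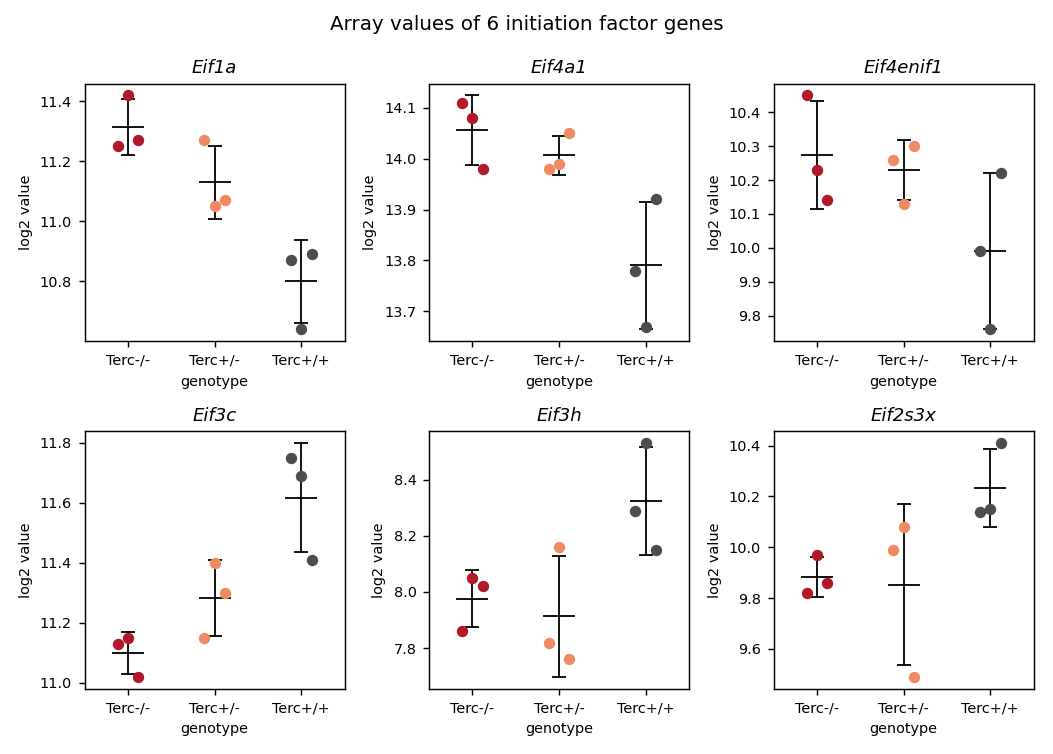
Log2 values by genotype for the 6 members with an unadjusted p under 0.05 when both mutants were set against Terc+/+; points are arrays, and bars are the mean with its SD (n = 3), on axes that differ by gene and do not start at 0. In Eif1a and Eif4a1 all mutant arrays lie above Terc+/+, and in Eif3c and Eif2s3x all lie below it, whereas in Eif4enif1 and Eif3h the genotypes overlap.

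Of the eIF3 complex, the largest initiation factor and the scaffold on which the others assemble, 12 subunit genes were measured, and 9 had a lower mean in Terc-/- than in Terc+/+ and 3 a higher one. Eif3c, a subunit of the core, gave 11.13, 11.15 and 11.02 in Terc-/-, 11.15, 11.40 and 11.30 in Terc+/-, and 11.75, 11.69 and 11.41 in Terc+/+. It was the only member whose groups did not overlap in any of the 3 pairs of genotypes, with Terc-/- lowest, though Terc-/- replicate 2 and Terc+/- replicate 1 both rounded to 11.15. The difference was -0.52 in Terc-/- against Terc+/+ (1.43-fold, interval -0.76 to -0.27, adjusted p = 0.138) and -0.33 in Terc+/- against Terc+/+ (interval -0.58 to -0.09, adjusted p = 0.402). Eif3c passed in Terc-/- against Terc+/+ without Terc+/+ replicate 3 (-0.62, adjusted p = 0.0291 with limma), a fit in which 1.54% of all features were called. Over all fits with 1 array left out its difference ran from -0.62 to -0.45, and it passed in no other of them.

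Eif3h, another subunit of the complex, gave 7.86, 8.05 and 8.02 in Terc-/-, 7.82, 8.16 and 7.76 in Terc+/-, and 8.29, 8.53 and 8.15 in Terc+/+. Terc-/- lay below Terc+/+ on all arrays, and Terc+/- replicate 2 overlapped with Terc+/+ replicate 3. The differences from Terc+/+ were -0.35 (SE 0.14, adjusted p = 0.419) in Terc-/- and -0.41 (adjusted p = 0.421) in Terc+/-. Eif3f averaged 13.73 ± 0.16 on the Terc-/- arrays and 13.77 ± 0.13 on the Terc+/- arrays, against 14.00 ± 0.35 on the Terc+/+ arrays (SD, n = 3), with Terc+/+ replicate 3 at 14.38 above all other arrays. Eif3b, which carries an RNA recognition motif, ran from 10.33 to 11.54 over the arrays, and both of these ends were Terc+/+ arrays.

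Eif3a, the largest subunit, and Eif3j1, a loosely bound one, had higher means in Terc-/- by 0.16 (interval -0.42 to 0.74) and 0.14 (interval -0.13 to 0.41). Eif3i, Eif3k, Eif3l, Eif3d and Eif3m differed by -0.08 to 0.03 between Terc-/- and Terc+/+, and their 95% intervals all lay between -0.33 and 0.26, which leaves out a 1.43-fold difference such as that of Eif3c. For Eif3e and Eif3m the values lay between 5.45 and 5.82, near the table's median, so their small differences say little about the transcripts. A further probe of Eif3l gave -0.28 in Terc-/- against Terc+/+, where its brightest gave 0.03.

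**Figure D3:**
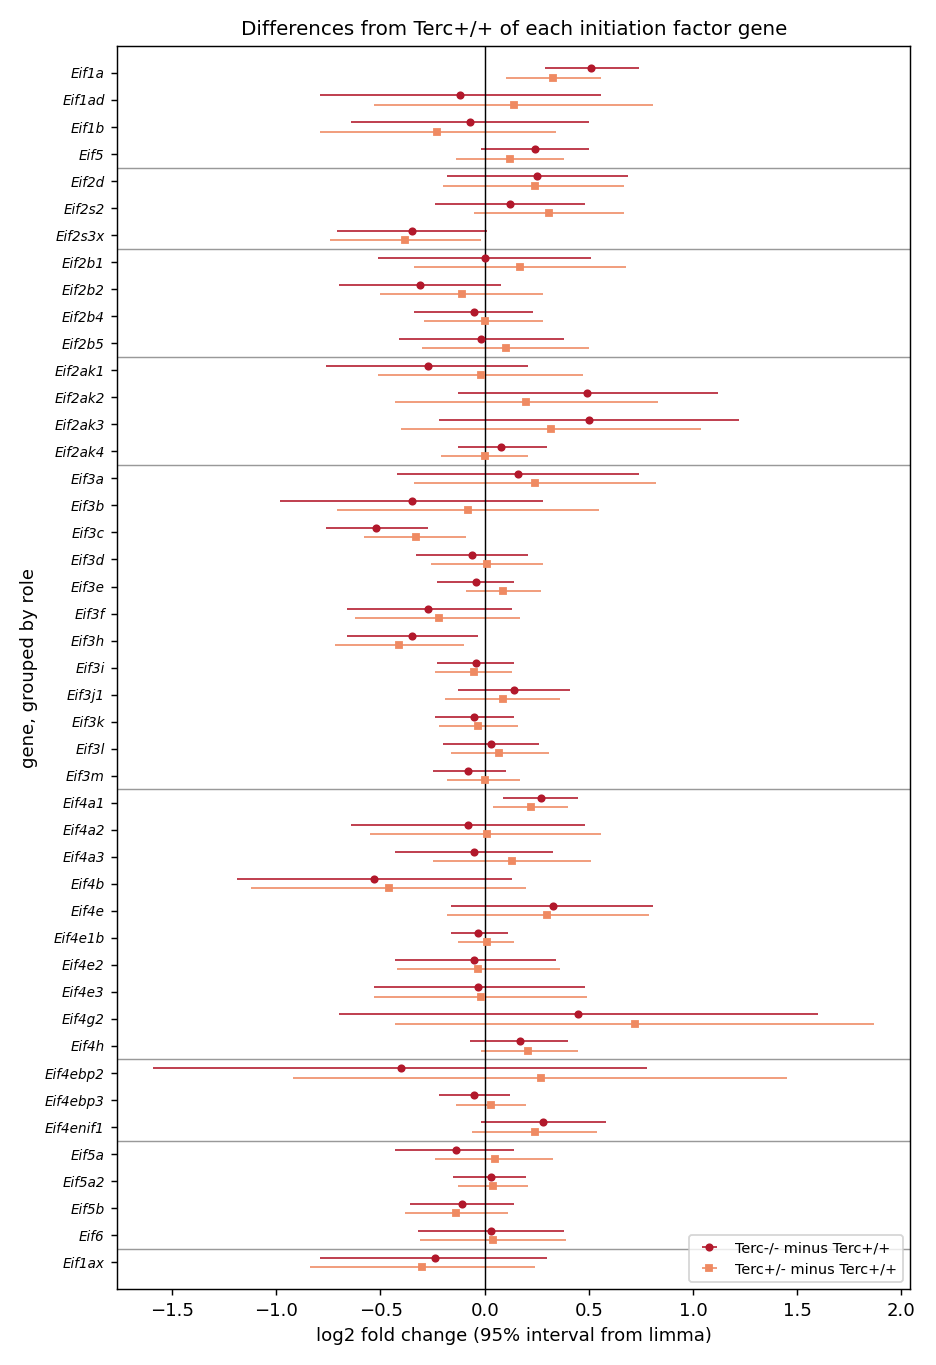
Log2 fold changes of Terc-/- (circles) and Terc+/- (squares) against Terc+/+ for the 45 genes, grouped by role, with 95% intervals from limma that are not adjusted for the number of genes. Intervals that leave out 0 belong to Eif1a, Eif3c, Eif3h and Eif4a1 in both comparisons and to Eif2s3x in Terc+/- against Terc+/+, and the widest belong to Eif4g2 and Eif4ebp2.

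The cap-binding and helicase group had 10 measured genes, of which 4 had a higher and 6 a lower mean in Terc-/- than in Terc+/+. Eif4a1, the main RNA helicase of the cap complex, gave 14.11, 14.08 and 13.98 in Terc-/-, 13.98, 13.99 and 14.05 in Terc+/-, and 13.78, 13.67 and 13.92 in Terc+/+. All mutant arrays lay above all Terc+/+ arrays. The difference was 0.27 in Terc-/- (1.20-fold, interval 0.09 to 0.45, adjusted p = 0.258) and 0.22 in Terc+/- (interval 0.04 to 0.40, adjusted p = 0.468). A dimmer second probe of Eif4a1 gave 0.01 and 0.00, so the difference was not seen by both probes. Its relative Eif4a2 ran from 11.81 to 12.88, both in Terc+/+, and differed by -0.08 (SE 0.24) in Terc-/- against Terc+/+.

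Eif4e, the cap-binding protein itself, gave 7.86, 7.66 and 7.54 in Terc-/-, 7.75, 7.42 and 7.82 in Terc+/-, and 7.19, 7.06 and 7.84 in Terc+/+. Every mutant array lay above Terc+/+ replicates 1 and 2 and all but Terc-/- replicate 1 lay below replicate 3. The difference was 0.33 in Terc-/- (interval -0.16 to 0.81, adjusted p = 0.670) and 0.30 in Terc+/- (interval -0.18 to 0.79). Eif4h, which stimulates the helicase, lay above Terc+/+ on all 3 Terc+/- arrays (12.93, 12.86 and 12.84 against 12.66, 12.51 and 12.81), by 0.21 in mean (adjusted p = 0.635). Eif4b, another stimulator of the helicase, had the lowest fold change of all members in both comparisons, -0.53 in Terc-/- (SE 0.28, adjusted p = 0.587) and -0.46 in Terc+/- (SE 0.28, adjusted p = 0.751), with overlapping arrays.

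Eif4g2, which encodes the scaffold DAP5 of cap-independent initiation, had the widest range of all members, 4.76-fold. It gave 9.27, 9.34 and 8.71 in Terc-/-, 9.81, 9.73 and 8.59 in Terc+/-, and 9.18, 9.23 and 7.56 in Terc+/+. Replicate 3 was the lowest array of each genotype, though over all features no pairing by replicate number was seen. The difference of Terc+/- from Terc+/+ was 0.72 (interval -0.43 to 1.87), the highest of any member, and its second probe gave -0.20. Eif4a3, the helicase of the exon junction complex, was lower in Terc-/- (11.40, 11.41 and 11.35) than in Terc+/- (11.53, 11.74 and 11.43) on all arrays, while the Terc+/+ arrays spanned both (11.04 to 11.71). The cap-binding relatives Eif4e2 and Eif4e3 differed by -0.05 (SE 0.17) and -0.03 (SE 0.22) in Terc-/- against Terc+/+ with their brightest probes. Further probes gave 0.13 and 0.30 for Eif4e2 and -0.11 and -0.01 for Eif4e3 in this comparison. The values of Eif4e1b lay between 5.44 and 5.55 on all arrays.

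The proteins that bind eIF4E outside the cap complex included the second widest range. Eif4ebp2, an inhibitor that holds eIF4E until mTOR phosphorylates it, gave 8.69, 7.67 and 7.57 in Terc-/-, 8.49, 8.67 and 8.76 in Terc+/-, and 9.48, 8.33 and 7.31 in Terc+/+. The lowest and the highest array were both Terc+/+, and its difference in Terc-/- was -0.40 (interval -1.59 to 0.78). Eif4enif1, the transporter that carries eIF4E into the nucleus, gave 10.45, 10.23 and 10.14 in Terc-/-, 10.26, 10.13 and 10.30 in Terc+/-, and 9.99, 9.76 and 10.22 in Terc+/+. Its mean was higher by 0.26 in both mutants together (SE 0.11, adjusted p = 0.423), with Terc+/+ replicate 3 inside the mutant range. Eif4ebp3 stayed between 5.42 and 5.69.

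On the eIF2 side, 3 genes of the factor and its non-canonical relatives were measured. Eif2s3x, the X-linked gene of the subunit that binds GTP and the initiator tRNA, gave 9.82, 9.97 and 9.86 in Terc-/-, 9.99, 10.08 and 9.49 in Terc+/-, and 10.14, 10.15 and 10.41 in Terc+/+. All 6 mutant arrays lay below all Terc+/+ arrays, with differences of -0.35 in Terc-/- (interval -0.71 to 0.01, adjusted p = 0.484) and -0.38 in Terc+/- (interval -0.74 to -0.02, adjusted p = 0.555). Eif2s2, the gene of the beta subunit, averaged 11.74 ± 0.19 on the Terc-/- arrays and 11.92 ± 0.10 on the Terc+/- arrays, against 11.62 ± 0.29 on the Terc+/+ arrays (SD, n = 3). Eif2d, which can deliver tRNA without GTP, differed by 0.25 (SE 0.19) and 0.24 (SE 0.19) in Terc-/- and Terc+/- from Terc+/+, where replicate 3 was the lowest array at 8.74. Its second probe gave -0.08 and -0.02 for these differences.

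eIF2B is the exchange factor that recharges eIF2 with GTP and is the target of the kinase signal. Its 4 measured subunit genes overlapped between all genotypes. Eif2b2 had the largest difference, with 9.25, 9.01 and 9.23 in Terc-/-, 9.25, 9.49 and 9.35 in Terc+/-, and 9.59, 9.75 and 9.07 in Terc+/+ (-0.31 in Terc-/- against Terc+/+, interval -0.70 to 0.08). Eif2b1, Eif2b4 and Eif2b5 differed by 0.00, -0.05 and -0.02 in the same comparison, with 95% intervals that reach at most 0.51 in either direction.

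The 4 kinases that phosphorylate eIF2 answer to different stresses, and all were measured. Eif2ak3 encodes PERK, the sensor of unfolded protein in the endoplasmic reticulum, and gave 8.33, 8.13 and 8.07 in Terc-/-, 8.01, 7.79 and 8.21 in Terc+/-, and 7.49, 7.08 and 8.47 in Terc+/+. The mutant arrays lay above Terc+/+ replicates 1 and 2 and below replicate 3, the highest of all. The difference in Terc-/- was 0.50 (interval -0.22 to 1.22, adjusted p = 0.661). Without Terc+/+ replicate 3, the contrast of both mutants with Terc+/+ was 0.81 and passed (adjusted p = 0.0416 with limma), in a fit that called 2.47% of all features. Over all fits with 1 array left out this contrast ran from 0.11 to 0.81, and it passed in no other of them.

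Eif2ak2 encodes PKR, the kinase activated by double-stranded RNA. It gave 9.02, 8.38 and 8.62 in Terc-/-, 8.71, 7.90 and 8.53 in Terc+/-, and 8.38, 8.42 and 7.73 in Terc+/+, and the genotypes overlapped (0.49 in Terc-/- against Terc+/+, interval -0.13 to 1.12). Eif2ak1 encodes HRI, the haem-regulated kinase, and gave 9.02, 8.80 and 8.65 in Terc-/-, 8.92, 9.11 and 9.21 in Terc+/-, and 9.50, 9.18 and 8.62 in Terc+/+ (-0.27, interval -0.76 to 0.21). Eif2ak4, the gene of the amino acid sensor GCN2, lay between 5.25 and 5.58 on all arrays, under the table's median, so that little can be read from its difference of 0.08 (SE 0.09). None of the 4 passed in any comparison, and the kinase genes did not share a direction.

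**Figure D4:**
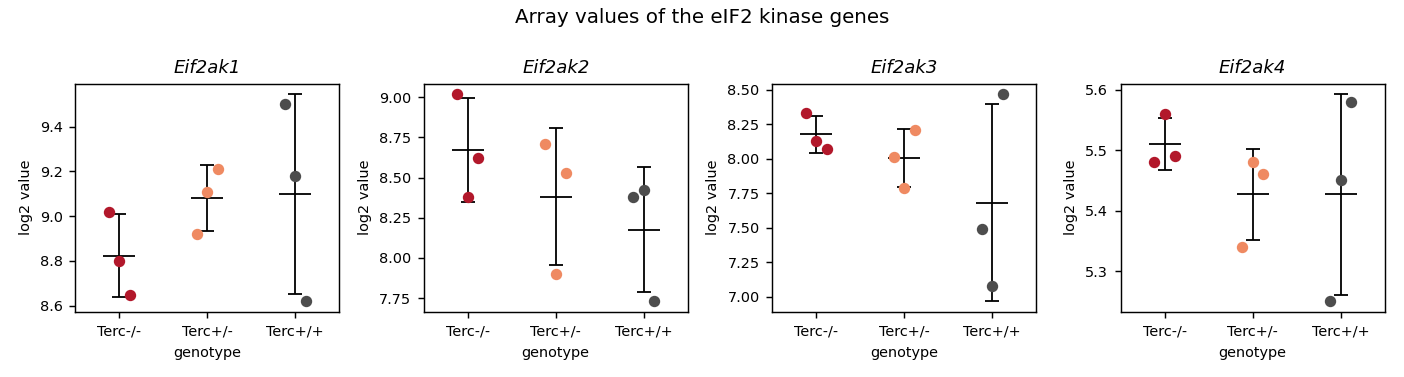
Log2 values of the 4 eIF2 kinase genes by genotype; points are arrays, and bars are the mean with its SD (n = 3), on axes that differ by gene and do not start at 0. In Eif2ak3 the Terc+/+ arrays hold both the lowest and the highest value, 7.08 and 8.47, and the 6 mutant arrays lie between them.

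Among the late factors was Eif5a, whose product carries the modified residue hypusine and helps ribosomes through difficult stretches. It averaged 12.34 ± 0.06 on the Terc-/- arrays and 12.53 ± 0.19 on the Terc+/- arrays, against 12.48 ± 0.19 on the Terc+/+ arrays with its brightest probe (SD, n = 3). Its second probe, at nearly the same mean, gave -0.47 in Terc-/- and -0.34 in Terc+/- against Terc+/+, where the brightest gave -0.14 and 0.05. Eif6, which keeps the large subunit from joining early, differed by 0.03 (interval -0.32 to 0.38) in Terc-/- against Terc+/+. Eif5b and Eif5a2 lay between 5.40 and 5.85, near the table's median. Over the 18 members with several probes, 11 of 24 further probes had the sign of the brightest for both mutants against Terc+/+ (both rounded to 2 decimals), so the sign of small differences depended on the probe. The other 27 members, among them Eif1a, Eif3c, Eif3h and Eif2s3x, had 1 probe each, so their differences could not be set beside a second probe.

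The count of members whose groups did not overlap can be read against the array. In Terc-/- against Terc+/+, 3 members lay wholly higher (Eif1a, Eif5 and Eif4a1), or 6.67%, against 7.49% of all features, and 3 wholly lower (Eif3c, Eif3h and Eif2s3x), or 6.67%, against 7.43%. In Terc+/- against Terc+/+, 3 lay wholly higher (Eif1a, Eif4a1 and Eif4h) against 7.29% of all features, and 2 wholly lower (Eif3c and Eif2s3x), or 4.44%, against 5.3%. In Terc-/- against Terc+/- none lay wholly higher (3.76% of all features) and 2 wholly lower (Eif3c and Eif4a3; 3.94%). With both mutants against Terc+/+, 2 lay wholly higher (Eif1a and Eif4a1), or 4.44%, against 3.48%, and 2 wholly lower (Eif3c and Eif2s3x), or 4.44%, against 2.88%.

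No member was called between Terc-/- and Terc+/-. The members with the largest moderated t were Eif1a (0.18, interval -0.04 to 0.41) and Eif2ak2 (0.29, interval -0.34 to 0.92) among those higher in Terc-/-, followed by Eif5 (0.11, SE 0.11), Eif2ak4 (0.08, SE 0.09) and Eif4a1 (0.05, SE 0.08). Among those lower were Eif3c (-0.18, interval -0.43 to 0.06), Eif3e (-0.13, SE 0.08), Eif5a (-0.19, SE 0.12), Eif4ebp2 (-0.67, interval -1.85 to 0.52) and Eif2s2 (-0.19, SE 0.16). All adjusted p-values were 1.00 with limma, and the intervals do not show that the mutant genotypes act alike.

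Genes next to the initiation factors in the pathway were read from lists, given here by counts. In the list of poly(A) binding proteins and helicase partners, 1 of 8 measured genes was called higher and 0 lower in Terc-/- against Terc+/+, against 0.0536% of all features. The called gene was Ddx3x, an RNA helicase of structured leaders, with 10.71, 10.84 and 10.61 in Terc-/-, 10.51, 10.52 and 10.48 in Terc+/-, and 10.00, 9.87 and 9.70 in Terc+/+. Its difference was 0.87 (SE 0.09, adjusted p = 0.0458 with limma), above the 0.51 of Eif1a, the highest among the initiation factor genes. The difference of Ddx3x lay between 0.79 and 0.94 under 17 alternatives, but its call was lost under 12 of them: without any 1 array other than Terc+/+ replicate 3, with the replicate block, with trend and robust variance, with only the genotypes compared and with features above a mean of 6 (adjusted p up to 0.267). The lowest of the list was Pabpc4, a poly(A) binding protein (-0.41, SE 0.11, adjusted p = 0.238).

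Denr and Mcts1 encode the 2 partners of a complex that recycles the small subunit and restarts scanning after short upstream frames. Denr gave 8.84, 8.56 and 8.31 in Terc-/-, 8.58, 8.47 and 8.71 in Terc+/-, and 8.01, 8.04 and 7.34 in Terc+/+, and Mcts1 gave 10.23, 10.15 and 10.23 in Terc-/-, 10.61, 9.94 and 10.13 in Terc+/-, and 9.79, 9.74 and 9.60 in Terc+/+. All mutant arrays of both genes lay above all Terc+/+ arrays, as did those of 3.48% of all features. The differences in Terc-/- were 0.77 (SE 0.21, adjusted p = 0.222 with limma) and 0.49 (SE 0.16, adjusted p = 0.303), without passing. Abce1, the recycling ATPase and the third gene of this list, was at 0.37 (SE 0.25).

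The other neighbour lists had 0 called genes in any comparison. Of 9 genes of mTOR and MNK signalling, 3 had a higher and 6 a lower mean in Terc-/- than in Terc+/+, from -0.45 for Mknk2, an eIF4E kinase, to 0.28 for Tsc2, an inhibitor of mTOR. Of 9 elongation and termination factors 6 were higher and 3 lower in mean, from -0.45 for Eef2 to 0.29 for Gspt1. All 10 genes of the eIF2 phosphatase and of the response to eIF2 phosphorylation had a lower mean in Terc-/- than in Terc+/+. So did 9048 of all 18666 features. The median of the 10 was -0.71, from -1.42 for Ddit4 to -0.22 for Asns. An unadjusted p under 0.05 with limma was reached by 5 of them and by 10.6% of all features, and 0 were called. This list was chosen with earlier results of these data known, so its counts carry no test. The kinase genes, in the same arrays, had higher means for 3 of 4 (median 0.289). These were Eif2ak3 (0.50), Eif2ak2 (0.49) and Eif2ak4 (0.08, with values under the table's median). Eif2ak1 had a lower mean (-0.27), and all 4 overlapped between Terc-/- and Terc+/+. Levels of mRNA do not measure kinase activity, and eIF2 phosphorylation was not measured here.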

How the data were processed

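RNA levels were read on bead arrays for 9 ntESC samples of 3 Terc genotypes (3 each). The values used are log2 values deposited by the authors, 1 per probe and array. Their unit and processing are not given in the sources used here; base 2 and a quantile-like normalization were read from the values (lowest 5.11, highest 14.8, equal medians). A deposited table of raw signals has 18 columns named by chip position only, which match no sample label and were not used, so no detection filter or depth was available and the number of arrays limits the precision. Of 25697 probes, 23141 had 1 gene symbol, 0 several and 2556 none; 23141 matched RefSeq by Entrez identifier. Each gene was read from its probe with the highest mean, which gave 18666 features. All were fitted in 1 limma 3.58.1 model in R 4.3.3 (lmFit, contrasts.fit, eBayes; 6 residual and 2.03 prior degrees of freedom), two-sided, with Benjamini-Hochberg adjustment over all features and a threshold of 0.05. The fit was tested on simulated data. A list's score is the mean deviation of its genes from their means over 9 arrays.

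Named members were all those called, the 8 highest and 8 lowest moderated t of each comparison with Terc+/+, the 5 highest and 5 lowest of Terc-/- against Terc+/-, and a set of core factors and kinases; the rest are described by role. Of the neighbour lists, called genes and the lowest and highest were named; Denr, Mcts1 and Abce1 are the whole of their list. The choice of the Eif3c promoter and of the genes drawn in the plot of 6 members was made after their values were seen. Members and lists were chosen with earlier results of these data known. Of 53 genes in the role lists, 9 symbols, among them Eif2s1, Eif4g1 and Eif1, were not analysed here. Promoter windows are RefSeq's for GRCm38.p6, matched by gene identifier for 36 members. Replicate numbers were checked for pairing: over 9 pairs of same-numbered arrays the correlation of deviations from genotype means ran from -0.602 to 0.447. Over 18 pairs with different numbers it ran from -0.502 to 0.72. No pairing by number was thus seen, and the labels give none. Alternatives were each array left out, the replicate number as a block, cyclic loess, trend and robust variance, array weights, only the genotypes compared, features with a mean above 6, the mean of all probes, and the feeder score as a covariate.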

Additional observations from a re-analysis of the deposited data

How the results depend on the processing

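The count of called initiation factor genes was 0 in every comparison as reported, and stayed 0 with the replicate block, cyclic loess, trend and robust variance, only the genotypes compared, features with a mean above 6, the mean of all probes and the feeder score as a covariate. Leaving out each array gave 0 to 1 called members in Terc-/- against Terc+/+ and 0 to 2 with both mutants against Terc+/+. The 1 was Eif3c and the 2 were Eif3c and Eif2ak3, in each case without Terc+/+ replicate 3. Array quality weights gave 12 called members in Terc-/- against Terc+/+ (and 16.1% of all features), 1 in Terc+/- against Terc+/+ (3.44%) and 14 with both mutants (3365 of all features). That setting gave Terc+/+ replicate 1 a weight of 7.01 and replicates 2 and 3 weights of 0.62 and 0.21, so the Terc+/+ mean then rested mostly on 1 array. Shifts of the members' median were set against 0.06, the SD within genotypes of each array's median deviation over the members. They stayed under it except in Terc+/- against Terc+/+ and with both mutants against Terc+/+. In Terc+/- against Terc+/+ the median ran from -0.006 to 0.125 leaving out each array, the highest without Terc+/+ replicate 1. Array weights gave -0.022 there. With both mutants it ran from -0.032 to 0.057 leaving out each array, the highest without Terc+/+ replicate 1. The cause of these shifts was not tested. The replicate block, for whose numbers no pairing was seen, kept each count at 0 and the medians at -0.044, 0.039, -0.042 and -0.011. Over 29 named members, 100 of their alternative values had the opposite sign with neither value past the threshold. A further 29 passed where the reported value did not, only with array weights or without Terc+/+ replicate 3, and 1831 did neither. Half-widths of the 95% intervals had a median of 0.357 for members in Terc-/- against Terc+/+, so the unadjusted interval of a typical member spans 1.28-fold in either direction.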

Other observations

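Initiation factors whose mRNA is known in human cells to begin with a terminal oligopyrimidine tract, a leader element that ties translation to mTOR, include Eif3e, Eif3f, Eif3h and Eif4b. This group was put together after the values were seen, so it carries no test. It need not hold every such factor, so it gives no direction for the class. Differences from Terc+/+ were -0.04, -0.27, -0.35 and -0.53 in Terc-/- and 0.09, -0.22, -0.41 and -0.46 in Terc+/- (in that order), none past the threshold. Genes left out of this group went the other way in Terc-/- and Terc+/-: Eif3a (0.16 and 0.24), Eif3l (0.03 and 0.07) and Pabpc1 (0.17 and 0.08). Whether their mRNAs belong to the class was not examined here. Eif3e lay between 5.45 and 5.73 on all arrays, near the table's median, so its differences say little about the transcript. Elongation factor genes of the same class had -0.45 (Eef2), -0.12 (Eef1g), -0.04 (Eef1b2) and 0.08 (Eef1d) in Terc-/- against Terc+/+, none past the threshold either.

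The median within-genotype SD was 0.208 over the 45 members, against 0.140 over all 18666 features. It was 0.229 over the 38 members with a mean of 6 or more, against 0.248 over the 9321 features with such a mean. Eif4ebp2 (0.72) and Eif4g2 (0.70) had the highest, and the 7 members with a mean under 6 lay between 0.04 and 0.13.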
